A study of Mus musculus with 9 samples.

Results

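Ecm1, Myo6 and 4 nucleoside transporter genes were followed through the culture of naive CD4+ T cells and their exposure to IL-1b. The 6 genes are Ecm1, Myo6, Gm14085, Slc28a2, Slc29a1 and Slc29a3, taken by symbol from 55487 gene identifiers, and 6 of 6 were among the 13043 genes with enough counts to be tested. Ecm1, Myo6 and Gm14085 were selected on measured values, being far higher in cultured than in fresh cells with little spread between replicates, and the other 3 as relatives of Gm14085. No numeric threshold was part of that choice. Values of the 6 genes against fresh cells are therefore descriptions without a test, and tests are given for IL-1b-treated against cultured cells, where the cultured libraries had still been part of the choice. A choice for little spread favours low p-values and groups that do not overlap in that comparison too.

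The study asked how IL-1b, an inflammatory cytokine, changes the transcripts of resting T cells kept in vitro. WT mice of the C57BL6/J strain gave lymph nodes, out of which naive CD4+ T cells were prepared; age and sex were not stated in the labels. The IL-1b-treated group spent 20 h in vitro with 10 ng/mL of recombinant IL-1b, the cultured group 20 h in vitro without it, and the fresh group was taken without culture. Each group had 3 libraries of polyadenylated RNA, and no label ties them to separate animals or cultures, so the spread behind each p-value may be technical.

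Ecm1 encodes a secreted glycoprotein of the extracellular matrix, which in mice is known to help T helper cells of the Th2 type leave lymph nodes. Myo6 encodes myosin VI, the motor that walks towards the minus end of actin filaments and carries endocytic vesicles and autophagy cargo through adaptor proteins. The Slc28 family holds concentrative transporters, which draw nucleosides into the cell along with sodium, and the Slc29 family holds equilibrative transporters, which let nucleosides pass down their gradient. Nucleosides taken up in this way feed the salvage pathway, from which a lymphocyte can rebuild its nucleotides.

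Libraries held 13518814 to 23056686 expected counts, the estimated read counts that RSEM gives each gene. Levels are given as CPM, counts scaled to library size with the TMM method, and as TPM, the deposited level corrected for transcript length. A value after ± is the SD over the 3 libraries of a group, or the SE where it follows a log2 difference. The summed TPM of 10 CD4 T cell markers was 3708 to 3748 with IL-1b, 4195 to 4233 in cultured and 5228 to 5329 in fresh cells, with no marker at 0 in any group. That of 8 B cell markers was 4.75 to 6.76 with IL-1b, 4.51 to 5.49 in cultured and 55 to 67.5 in fresh cells, and that of 5 regulatory T cell markers was 55.8 to 58.8, 65 to 70.6 and 12.7 to 20.3 in the same order. The 9 macrophage and dendritic cell markers summed to 0.74 to 3.29, 1.3 to 2.99 and 15.8 to 20.3 TPM, and the 8 neutrophil markers to 0 to 2.22, 0.12 to 0.4 and 12.7 to 37.9 TPM. The 3 CD8 T cell markers summed to 38.2 to 43.3, 42.2 to 51 and 28.2 to 31.2 TPM, the 6 of NK and innate lymphoid cells to 0.23 to 0.84, 0.64 to 2.07 and 6.4 to 8.2 TPM, and the 5 erythroid ones to 0.15 to 1.76, 0.52 to 4.03 and 7.83 to 35.7 TPM. The 9 stromal and endothelial ones, led by Pecam1, summed to 140 to 149, 180 to 181 and 149 to 162 TPM. Of these 9, 6 were at 0 with IL-1b and in cultured cells, Col1a2, Col3a1 and Pdgfra among them, and 5 in fresh cells. The mitochondrial share of counts was 3.11 to 3.4% with IL-1b, 2.41 to 2.59% in cultured and 1.99 to 2.03% in fresh cells, without overlap. These markers and this share moved with the conditions, and their part in the values below was not tested. In such bulk samples, fewer cells of a type and less RNA per cell cannot be told apart.

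Ecm1 lies on the minus strand of chromosome 3 at 95734147 to 95739569 (GRCm38, the assembly behind mm10) and has 10 transcripts in GENCODE M21. Its counts were 13183, 11720 and 12262 in the IL-1b-treated libraries, 15519, 16037 and 16655 in the cultured ones and 848, 518 and 472 in the fresh ones. Scaled to CPM, Ecm1 averaged 819 ± 24.9 with IL-1b, 1014 ± 22.3 in cultured and 33 ± 2.16 in fresh cells (SD, n = 3 each). Every library of both cultured conditions lay far above every fresh one, and the IL-1b-treated libraries all lay below the cultured ones.

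Between cultured and fresh cells the Ecm1 level in CPM differed 30.6-fold, a log2 difference of 4.93 ± 0.04 (SE). This placed it at rank 32 of the 13043 genes, of which 58.2% passed an adjusted p of 0.05 in that comparison, and nothing is read from this beyond the choice of the gene. The CPM of the groups did not overlap for 65.5% of all genes between cultured and fresh cells and for 68.1% between IL-1b-treated and fresh cells. Against the same fresh libraries, IL-1b-treated cells had a log2 difference of 4.63 ± 0.04. With IL-1b, Ecm1 fell by 19.2% relative to cultured cells, a log2 fold change of -0.31 ± 0.03, with an adjusted p of 1.8e-07 (edgeR, quasi-likelihood, Benjamini-Hochberg over all genes). The direction and the call were kept in 14 of 14 other settings and in 9 of 9 fits that left out a library. Summing Gm14085 with Slc28a2, or leaving out a fresh library, did not alter the Ecm1 counts of either compared group. Those fits could act only through the shared fit.

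In TPM, Ecm1 averaged 706 ± 12.7 with IL-1b, 1158 ± 14.5 in cultured and 48.1 ± 13.9 in fresh cells (SD, n = 3 each). The ratio of IL-1b-treated to cultured cells was 0.61 on this scale, a log2 difference of -0.71. The median tested gene had a log2 TPM difference of -0.27 in that comparison and of -0.22 between cultured and fresh cells, against -0.007 and 0.004 for the fitted log2 fold changes. The lower Ecm1 level with IL-1b on the TPM scale is thus to be read against a typical gene that also lay below 0.

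Myo6 lies on the plus strand of chromosome 9 at 80165031 to 80311729 and has 12 listed transcripts. Its counts were 12057, 10397 and 10867 in the IL-1b-treated, 9455, 9836 and 9705 in the cultured and 581, 377 and 368 in the fresh libraries. The CPM averaged 733 ± 11.6, 610 ± 6.01 and 24.1 ± 1.76 in the same order of groups (SD, n = 3 each). The IL-1b-treated libraries were all highest and the fresh ones all lowest, without overlap.

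Cultured cells exceeded fresh cells 25.4-fold in Myo6 CPM, a log2 difference of 4.66 ± 0.04 (SE), at rank 37 of all tested genes. IL-1b-treated cells stood 4.93 ± 0.04 above the same fresh libraries. Myo6 rose by 20.3% in CPM with IL-1b over cultured cells, with a log2 fold change of 0.27 ± 0.03 and an adjusted p of 8.77e-07 in the same edgeR test. That call rested on the scale, since on log2(TPM + 1) the difference was 0.05 with an adjusted p of 0.742 in limma, and 0.09 with an adjusted p of 0.0568 in edgeR after a trend on GC content and length was removed. In TPM the libraries overlapped, at 809, 847 and 839 in IL-1b-treated cells, 863, 756 and 804 in cultured cells and 32.5, 33 and 42.7 in fresh cells.

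The plot of member levels by library shows these 2 genes beside the transporters.

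**Figure D1:**
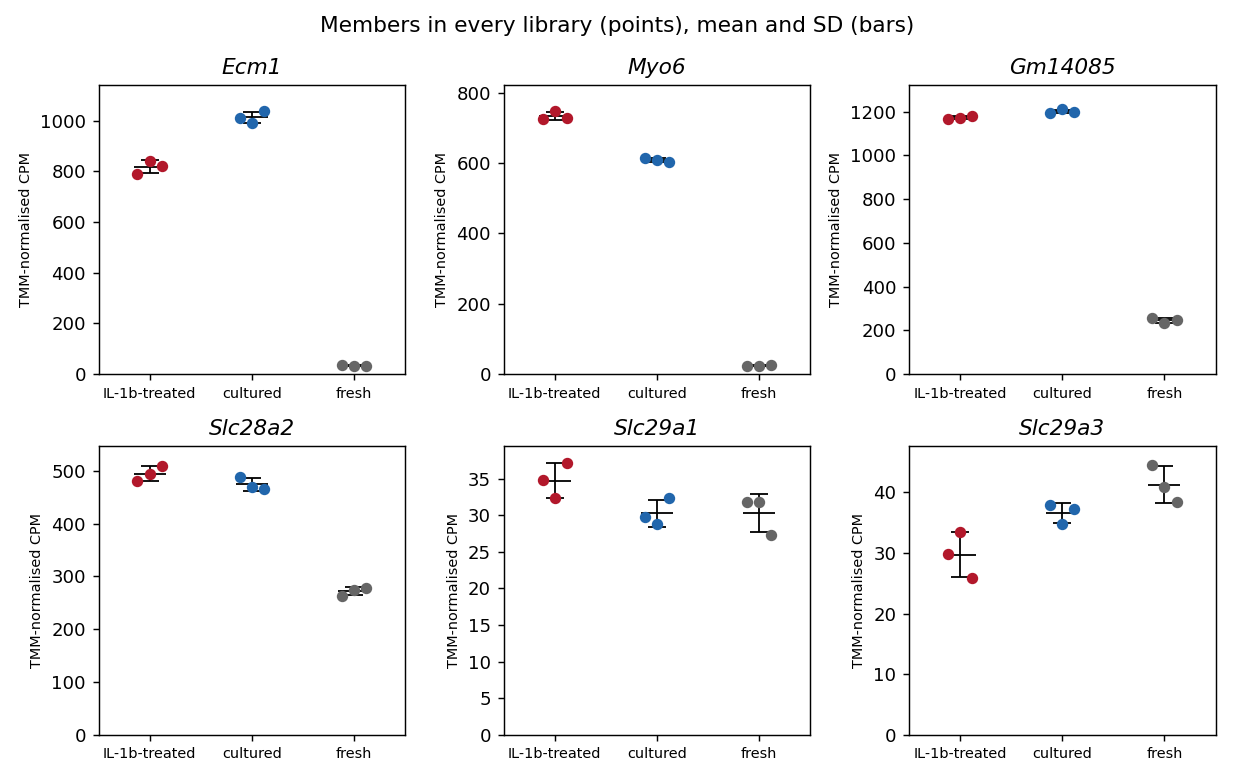
TMM-normalised CPM (vertical axis, linear from 0) of the 6 genes in IL-1b-treated, cultured and fresh libraries; points are libraries and bars the mean and SD of 3. Ecm1 averaged 819, 1014 and 33 CPM and Myo6 733, 610 and 24.1 CPM in that order of groups, while Slc29a1 stayed between 27.3 and 37.1 CPM in all 9 libraries.

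Ecm1 and Myo6 moved together with culture and apart with IL-1b. The count of Ecm1 per count of Myo6 was 1.09, 1.13 and 1.13 in IL-1b-treated libraries, 1.64, 1.63 and 1.72 in cultured ones and 1.46, 1.37 and 1.28 in fresh ones. This ratio of counts does not depend on scaling to library size, but corrections for gene length or GC content can change it. The IL-1b-treated libraries all lay below the fresh ones, and the cultured ones all above them. The means of the ratio were 1.12 ± 0.0231, 1.66 ± 0.0493 and 1.37 ± 0.09 (SD, n = 3 each). The order of IL-1b-treated and fresh cells depended on the setting. Their log2 differences were 4.63 for Ecm1 and 4.93 for Myo6 in the main fit. With GC content and length trends removed they were 4.83 and 4.41. No test of the ratio itself was made.

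The stretches around the annotated starts of both genes are shown because both levels were far higher in culture while the start regions differ in composition. Each is 300 bases from RefSeq on GRCm38.p6, from 250 before to 50 after the start, written in the direction of the gene. Ecm1 is chr3:95739520-95739819 on the minus strand and Myo6 is chr9:80164784-80165083 on the plus strand. Capitals mark a match to 1 of the 8 motifs searched on both strands.
Ecm1: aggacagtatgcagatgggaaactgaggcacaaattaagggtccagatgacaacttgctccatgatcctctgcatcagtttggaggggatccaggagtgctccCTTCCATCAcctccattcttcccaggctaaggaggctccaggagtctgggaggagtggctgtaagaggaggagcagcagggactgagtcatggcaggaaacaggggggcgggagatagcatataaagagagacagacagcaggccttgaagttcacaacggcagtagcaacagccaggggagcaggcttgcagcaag
Myo6: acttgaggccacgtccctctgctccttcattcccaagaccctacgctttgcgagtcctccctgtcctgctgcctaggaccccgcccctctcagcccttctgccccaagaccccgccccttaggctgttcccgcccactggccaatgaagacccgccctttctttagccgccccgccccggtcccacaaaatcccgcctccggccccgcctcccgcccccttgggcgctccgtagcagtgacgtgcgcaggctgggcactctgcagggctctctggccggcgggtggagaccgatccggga
The Ecm1 start region held 2 CG dinucleotides and the Myo6 one 22, against a median of 7 (quartiles 3 and 20) over 32851 RefSeq start regions of the same length. Capitals in Ecm1 mark the letters TGATGNAAN, the core of the composite element of ATF4, on the opposite strand at -147 from the start. The same letters occurred in 3.95% of all start regions. The other motifs were TTCNNNGAA (STAT), TGTTTAC (FOXO), CCACACCC (KLF), CACGTG (E-box), TGACGTCA (CRE), GGGA, any base, TTTCC (NF-kB) and TTTC, any 2 bases, TTTC (ISRE core), and none of the 8 was found in this window of Myo6. A match is a run of letters and no evidence of binding.

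The deposited tables give each gene a length, the mean over its listed transcripts weighted by their estimated abundance. For Myo6 this length was far below that of its full transcripts in every library. It was 1169, 1150 and 1138 bases in IL-1b-treated, 1171, 1285 and 1215 bases in cultured and 1375, 1293 and 1180 bases in fresh libraries, whereas the 4 longest coding transcripts span 7632 to 7927 bases. The other 8 listed transcripts span 471 to 4139 bases, and 5 of them are retained-intron models, which keep intron sequence and encode no full protein.

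These lengths bound how much of the Myo6 abundance can belong to full transcripts. If all of the rest sat in the shortest listed transcript, at most 9.31 to 12.6% of its TPM could lie in the 4 longest ones. The same bound left room for 74.9 to 81.4% of its counts in them, because a long transcript yields more reads per molecule. The RSEM estimate in all 9 libraries thus put most Myo6 molecules outside the 4 longest transcripts. Whether such short transcripts were present was not tested, since the reads were not used here.

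The Myo6 TPM therefore hung on the assigned length. With the length of its longest coding transcript in every library, a value chosen after seeing the data, Myo6 averaged 101 ± 1.56 TPM with IL-1b, 105 ± 1.23 in cultured and 4.87 ± 0.345 in fresh cells (SD, n = 3 each), against 832 ± 20, 808 ± 53.9 and 36 ± 5.77 as deposited. The same step gave Ecm1 517 ± 15, 800 ± 16.3 and 30.8 ± 1.89 TPM in that order of groups. Gm14085 hardly depended on it, with 354 ± 1.35, 452 ± 3.85 and 109 ± 4.46 TPM against 359 ± 0.784, 461 ± 3.42 and 111 ± 5.1 as deposited.

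The order of the genes per length changed with it. As deposited, Ecm1 led in cultured cells at 1158 TPM, followed by Myo6 at 808, Gm14085 at 461, Slc28a2 at 223, Slc29a1 at 28.1 and Slc29a3 at 10.6 TPM. With the length of the longest coding transcript, Myo6 stood below both Slc28 genes in cultured cells, at 105 TPM against 452 for Gm14085 and 170 for Slc28a2. In fresh cells the deposited TPM of Ecm1, Myo6 and Slc29a1, at 48.1 ± 13.9, 36 ± 5.77 and 33.9 ± 3.01 (SD, n = 3 each), did not differ beyond their spread. With the longest coding transcript, Myo6 was the lowest of the 6 in fresh cells and Slc29a3 the lowest in both cultured groups.

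Ecm1 lengths were 1424, 1492 and 1427 bases in IL-1b-treated, 1399, 1348 and 1393 bases in cultured and 1461, 1539 and 1048 bases in fresh libraries, against 1894 and 1900 bases for its 2 longest coding transcripts. Fresh replicate 3 stood apart from the other 2 fresh libraries. It also had the highest fresh TPM of Ecm1, 63.6 against 44.1 and 36.7, although its CPM of 33.2 lay between their 35.1 and 30.8. The fresh TPM of Ecm1 varied by 28.9% of its mean and the CPM by 6.53%.

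Culture with IL-1b moved the assigned lengths little. Ecm1 was 67.6 bases longer, Gm14085 17.1 bases longer and Myo6 different by -71.3 bases relative to cultured cells, each with groups that did not overlap and an exact two-sided permutation p of 0.1, the smallest that 3 against 3 libraries can give (0.175 adjusted over 7 tests). Without cultured replicate 2 the Myo6 difference was -40.5 bases. The groups of Slc28a2, Slc29a1 and Slc29a3 overlapped, with differences of -20.7, 52.9 and 275 bases and exact permutation p of 0.5, 0.5 and 0.7. Non-overlapping lengths were found for 12.2% of the 10485 genes compared in this way, beside 3 of the 6 genes here. The Slc29a3 difference came from cultured replicate 2, at 4196 bases against 5107 and 5199 bases in the other 2, and was -43.7 bases without it.

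**Figure D2:**
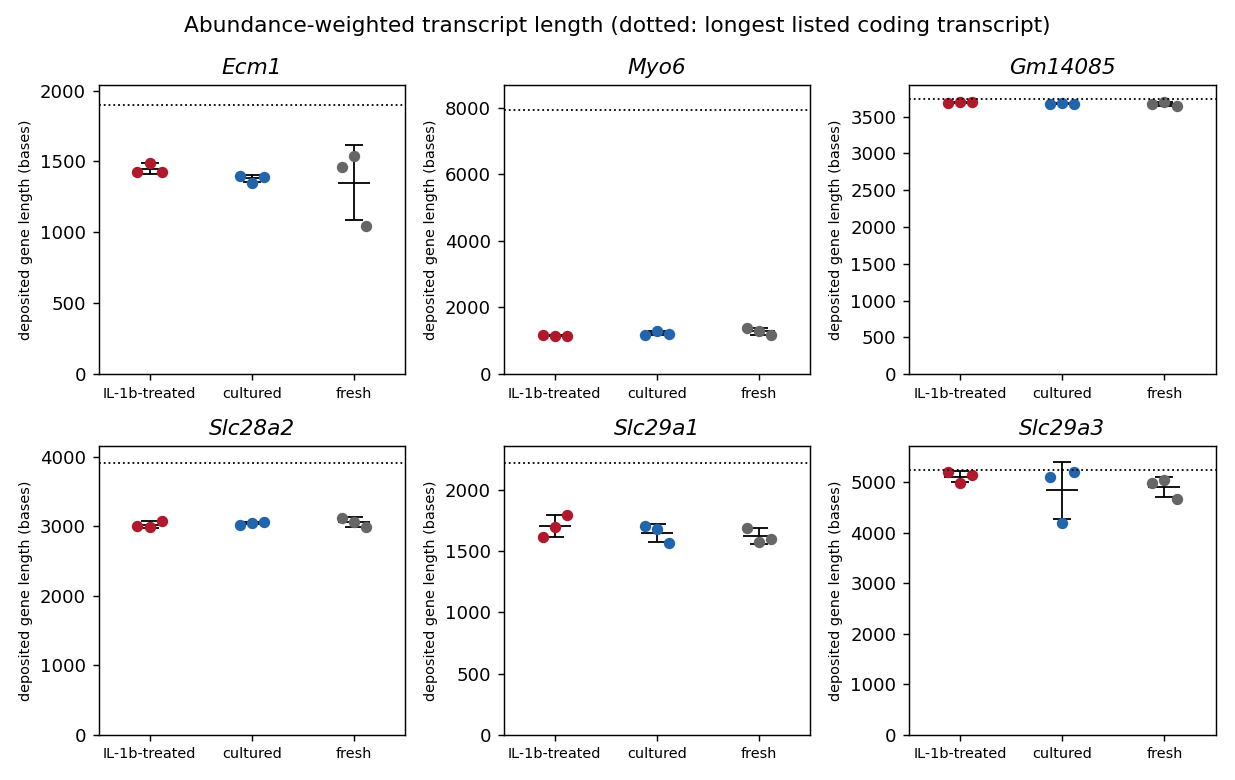
Abundance-weighted gene length in bases as deposited (vertical axis, linear from 0) for the 6 genes in IL-1b-treated, cultured and fresh libraries; points are libraries, bars the mean and SD of 3, and the dotted line the longest listed coding transcript. Myo6 lay between 1138 and 1375 bases under a line at 7927, while Gm14085 lay between 3651 and 3700 bases under a line at 3740.

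Among the transporters, Gm14085 and Slc28a2 were the abundant ones. Gm14085, named Slc28a2b in RefSeq, lies on the plus strand of chromosome 2 at 122484941 to 122528040, downstream of Slc28a2 at 122426477 to 122461137 on the same strand. Slc28a2 encodes CNT2, a sodium-coupled carrier that prefers purine nucleosides. Gm14085 has the form of a second copy of that gene beside it.

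The coding sequences of the pair are 1980 bases each and were identical at 1880 of 1976 aligned positions, or 95.1%, with a longest identical run of 192 bases. A stretch of 120 coding bases where they differ most is shown because reads can be told apart only where such differences fall. It covers coding bases 423 to 542 of both genes on chromosome 2, read from the first listed GENCODE M21 transcript of each, and capitals mark the 25 bases that differ.
Gm14085: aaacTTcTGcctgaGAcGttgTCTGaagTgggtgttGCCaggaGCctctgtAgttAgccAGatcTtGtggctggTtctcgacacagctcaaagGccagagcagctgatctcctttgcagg
Slc28a2: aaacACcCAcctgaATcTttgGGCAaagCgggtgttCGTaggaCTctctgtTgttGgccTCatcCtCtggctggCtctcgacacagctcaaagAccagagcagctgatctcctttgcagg
The run of lower case at the end of the window is shared by both. Of all 50-base windows of the Gm14085 transcript 40.6% also occurred in Slc28a2, and of all 100-base windows 21.5%. In the reverse direction the shares of Slc28a2 were 39.4 and 20.9%.

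RSEM divided such shared reads between the pair in proportions, so that single counts were fractional while their sums were whole in all 9 libraries. Reads were thus shared within the pair, with no fraction passed to any other gene. Each of the 2 levels is uncertain by the part that was divided, and their sum does not depend on that division. Other errors in placing reads were not tested.

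Gm14085 counts were 19439.67, 16319.50 and 17572.30 in IL-1b-treated, 18314.15, 19545.62 and 19270.77 in cultured and 6171.21, 3943.56 and 3532.39 in fresh libraries. The CPM averaged 1173 ± 5.44 with IL-1b, 1201 ± 8.16 in cultured and 246 ± 10.7 in fresh cells (SD, n = 3 each). Both cultured conditions lay far above fresh cells and close to each other, although the 3 IL-1b-treated libraries all lay below the cultured ones.

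The cultured level of Gm14085 was 4.88 times the fresh level, a log2 difference of 2.29 ± 0.03 (SE) at rank 176 of the tested genes, and IL-1b-treated cells stood 2.25 ± 0.03 above the same fresh libraries. Between IL-1b-treated and cultured cells the log2 fold change was -0.03 ± 0.03, with a 95% interval of -0.09 to 0.02 and an adjusted p of 0.409 in the same edgeR test. The call depended on the scale. With library size alone the value was -0.15 (adjusted p = 0.000163, edgeR), and on log2(TPM + 1) it was -0.36 (adjusted p = 0.000127, limma), where the median gene was at -0.27.

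Slc28a2 counts were 8007.33, 6878.50 and 7579.70 in IL-1b-treated, 7486.85, 7583.38 and 7472.23 in cultured and 6353.79, 4625.44 and 3947.61 in fresh libraries. The CPM averaged 495 ± 13.7, 474 ± 12.1 and 272 ± 7.99 in that order of groups (SD, n = 3 each), so cultured cells had 1.75 times the fresh level, a log2 difference of 0.80 ± 0.03. IL-1b-treated libraries overlapped the cultured ones, and every fresh library lay below both. The log2 fold change with IL-1b over cultured cells was 0.06 ± 0.03, with a 95% interval of -0.00 to 0.12 and an adjusted p of 0.182 in the same edgeR test. On log2(TPM + 1) it was -0.25 (adjusted p = 0.00299, limma), and with GC content and length trends removed 0.11 (adjusted p = 0.00984, edgeR), so neither the direction nor the call held across scales.

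Within the pair, Gm14085 took 70.8, 70.3 and 69.9% of the summed counts in IL-1b-treated libraries, 71, 72 and 72.1% in cultured ones and 49.3, 46 and 47.2% in fresh ones. The copy thus held the larger share of counts in both cultured conditions and just under an equal share in fresh cells. In TPM, which corrects for length, its share was 65.4 to 66.1% with IL-1b, 66.5 to 67.9% in cultured and 41 to 44.9% in fresh cells. Its share of counts was 1.35 percentage points lower with IL-1b than in cultured cells, with no overlap and an exact two-sided permutation p of 0.1, the smallest possible for 3 against 3 (0.175 adjusted over 7 tests). As 1 locus, the pair had a log2 difference of 1.69 both between cultured and fresh and between IL-1b-treated and fresh cells, and of -0.01 between IL-1b-treated and cultured cells (adjusted p = 0.868, edgeR).

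**Figure D3:**
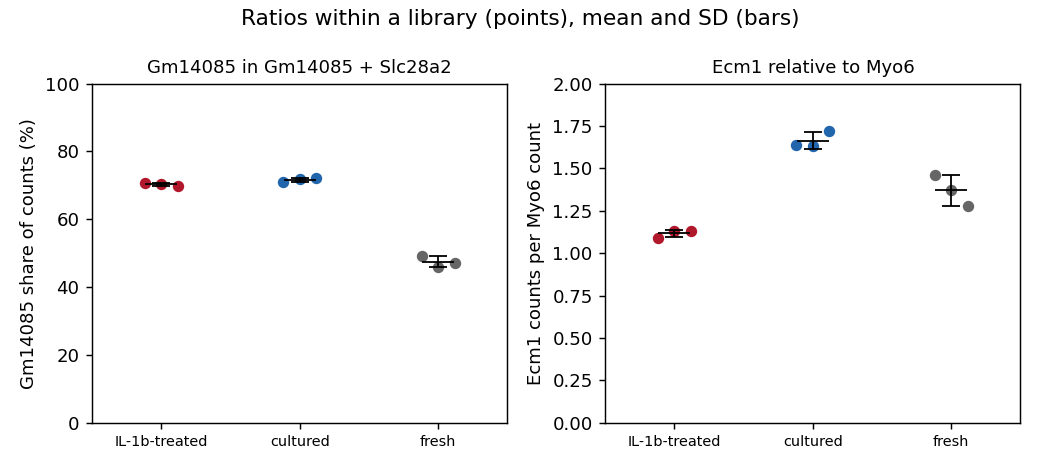
Left, share of Gm14085 in the summed expected counts of Gm14085 and Slc28a2 (percent); right, expected counts of Ecm1 per count of Myo6, for IL-1b-treated, cultured and fresh libraries. Points are libraries and bars the mean and SD of 3; the share averaged 70.3, 71.7 and 47.5% and the ratio 1.12, 1.66 and 1.37 in that order of groups.

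The start regions of the pair are shown because the coding parts are nearly the same while the levels differed unequally between cultured and fresh cells. They are chr2:122484691-122484990 for Gm14085 and chr2:122426185-122426484 for Slc28a2, both on the plus strand and cut as above.
Gm14085: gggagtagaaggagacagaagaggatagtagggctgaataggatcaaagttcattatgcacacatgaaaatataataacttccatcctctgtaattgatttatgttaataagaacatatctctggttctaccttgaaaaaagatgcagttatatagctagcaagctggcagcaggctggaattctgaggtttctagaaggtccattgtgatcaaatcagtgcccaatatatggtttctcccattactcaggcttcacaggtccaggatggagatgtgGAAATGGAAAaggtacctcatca
Slc28a2: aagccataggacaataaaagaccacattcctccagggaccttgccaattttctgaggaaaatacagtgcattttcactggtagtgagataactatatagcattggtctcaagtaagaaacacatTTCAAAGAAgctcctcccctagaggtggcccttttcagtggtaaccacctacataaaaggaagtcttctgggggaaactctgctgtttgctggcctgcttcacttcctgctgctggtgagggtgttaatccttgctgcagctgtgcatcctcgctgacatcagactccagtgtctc
Over the 251 positions that could be aligned without gaps 70.1% were identical, against 95.1% in the coding part. Capitals in Gm14085 mark the ISRE core letters on the opposite strand, 27 bases after the start, found in 3.44% of all start regions. Those in Slc28a2 mark the STAT letters TTCNNNGAA at -126 from the start, found in 8.3%. The Gm14085 window held 0 CG dinucleotides and that of Slc28a2 held 1.

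Slc29a1 and Slc29a3 were the scarce members, well below the Slc28 pair in every library. Slc29a1 encodes ENT1, the equilibrative carrier of the plasma membrane, and lies on the minus strand of chromosome 17 at 45585200 to 45599606. Its CPM was 34.8, 32.3 and 37.1 in IL-1b-treated, 29.7, 28.8 and 32.3 in cultured and 31.8, 31.8 and 27.3 in fresh libraries. The cultured and fresh values overlapped, with a log2 difference of -0.01 ± 0.09, and the IL-1b-treated ones lay at or above all others. With IL-1b over cultured cells the log2 fold change was 0.20 ± 0.09, with a 95% interval of 0.02 to 0.38 that applies to 1 gene alone and an adjusted p over all genes of 0.108 in the same edgeR test. In TPM the libraries overlapped and the difference turned to -0.17 (adjusted p = 0.213, limma).

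Slc29a3 encodes ENT3, the equilibrative carrier of lysosomes, and lies on the minus strand of chromosome 10 at 60712072 to 60752794. Its CPM was 29.9, 33.4 and 25.9 in IL-1b-treated, 37.9, 34.8 and 37.2 in cultured and 44.5, 40.9 and 38.4 in fresh libraries. The groups did not overlap, with the IL-1b-treated libraries lowest and the fresh ones highest. Cultured cells differed from fresh ones by -0.17 ± 0.09 on the log2 scale and IL-1b-treated cells by -0.48 ± 0.09. Both turned with GC content and length trends removed, to 0.18 and 0.12.

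Slc29a3 fell with IL-1b relative to cultured cells, with a log2 fold change of -0.30 ± 0.09 (SE) and an adjusted p of 0.017 in the same edgeR test. The call was lost without IL-1b-treated replicate 3 (-0.21, adjusted p = 0.113), without cultured replicate 1 (-0.28, adjusted p = 0.0713) and without cultured replicate 3 (-0.29, adjusted p = 0.0627), all in edgeR. It was also lost when GC content and length trends were removed, at -0.06 with an adjusted p of 0.73 in edgeR.

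Of the 6 genes, 1 rose with IL-1b over cultured cells (Myo6), 2 fell (Ecm1 and Slc29a3) and 3 did not pass the test, where 28.9% of all tested genes passed, 15.6% as higher and 13.3% as lower. In CPM the groups did not overlap for 5 of the 6, where this was so for 40.3% of all genes. In TPM it held for 4 of the 6, all lower with IL-1b, and for 48.8% of all genes. Ecm1, Myo6 and Gm14085 were chosen for little spread between replicates, cultured ones included, which favours calls and non-overlap. Nothing is therefore read from these counts of members against the shares over all genes. Over all genes 2037 were called higher and 1731 lower, and this split changed with the scale. It was 1191 higher and 3273 lower with library size alone, 289 and 4452 on log2(TPM + 1), and 1921 and 597 with GC content and length trends removed. The effective length at the median count was 1781 to 1794 bases in IL-1b-treated, 2100 to 2136 in cultured and 2359 to 2380 in fresh libraries, and its part in these differences was checked only by those settings.

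**Figure D4:**
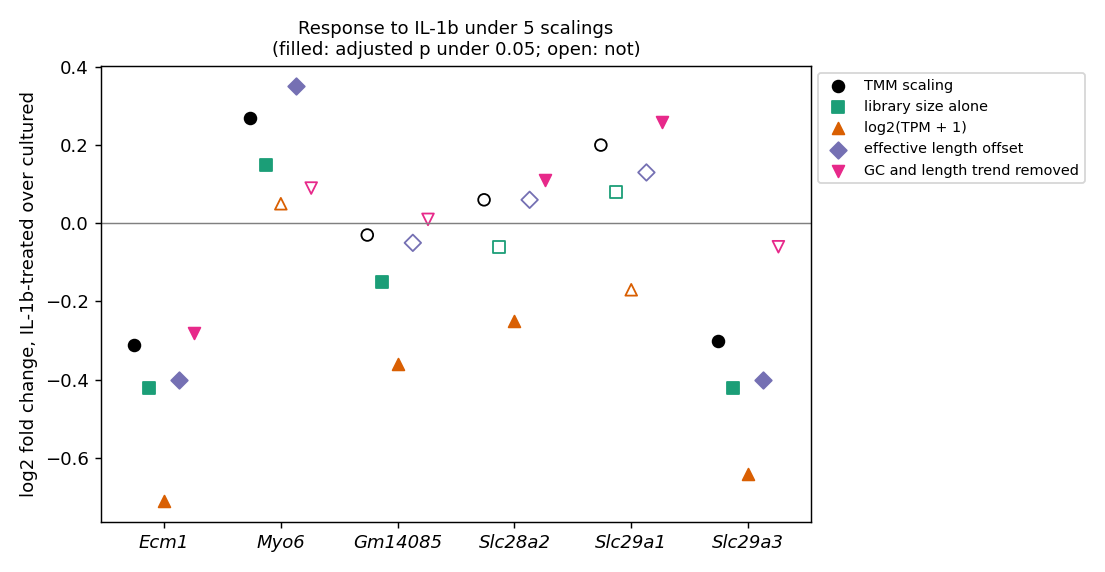
Log2 fold change of IL-1b-treated over cultured cells (vertical axis) for the 6 genes under 5 scalings, filled where the adjusted p was under 0.05. Ecm1 lay between -0.71 and -0.28 and was filled throughout, whereas Myo6 ran between 0.05 and 0.35 and Slc28a2 between -0.25 and 0.11.

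The other carriers of the 2 families were scarce. Over the 3 libraries of a group, Slc28a1 had 32, 16 and 12 counts in IL-1b-treated, cultured and fresh cells, Slc28a3 had 2, 0 and 0, and Slc29a4 had 5, 3 and 18, and these 3 were too low to be tested. Slc29a2, the equilibrative carrier ENT2, had 68, 60 and 141 counts. Its log2 fold change was 0.23 with IL-1b over cultured cells (adjusted p = 0.768, edgeR) and -1.01 in cultured over fresh cells (adjusted p = 0.0538, edgeR). The value for culture passed the threshold in 7 of 14 other settings, DESeq2 and limma-voom among them, and in 3 of 9 fits without a library, with log2 fold changes of -1.44 to -0.74 and adjusted p of 0.0158 to 0.161 over the other settings and -1.46 to -0.67 and 0.0207 to 0.231 over the fits without a library.

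Genes of the same pathways, listed without the 6 members, moved in both directions. With IL-1b over cultured cells 15.6% of all genes were called higher and 13.3% lower in edgeR's fit, or 289 and 4452 of 13043 on log2(TPM + 1). Of 26 tested genes of nucleoside salvage and breakdown, 7 rose and 2 fell, which became 1 and 8 on log2(TPM + 1). Their median log2 fold change was -0.02 in edgeR's fit, against -0.007 over all genes. Without any 1 of IL-1b-treated replicates 1 and 2 and cultured replicates 1, 2 and 3, only 1 fell. Hprt, which salvages hypoxanthine and guanine, averaged 98.9 ± 1.67 CPM with IL-1b, 72.6 ± 0.649 in cultured and 46.7 ± 0.588 in fresh cells (SD, n = 3 each), with a log2 fold change of 0.45 for IL-1b over cultured cells (adjusted p = 7.82e-07, edgeR). Nt5c, a cytosolic nucleotidase, had 0.43 (adjusted p = 1.12e-06, edgeR), and 0.07 with no call in TPM. Samhd1, which breaks down deoxynucleotides, had -0.17 (adjusted p = 2.81e-05, edgeR), and -0.12 with no call under an effective length offset.

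In cultured over fresh cells, where 29.4% of all genes were called higher and 28.9% lower, 11 of the 26 salvage genes rose and 8 fell, or 7 and 11 on log2(TPM + 1). On that scale 1877 of all 13043 genes were called higher and 4842 lower. Samhd1 averaged 1023 ± 23.8 CPM with IL-1b, 1151 ± 23.1 in cultured and 604 ± 2.13 in fresh cells, a log2 fold change of 0.93 for culture (adjusted p = 2.55e-18, edgeR). Adk, which phosphorylates adenosine, had 1.49 (adjusted p = 1.2e-12, edgeR), and Xdh, which oxidises xanthine, had -1.45 (adjusted p = 5.14e-10, edgeR). Cells in culture thus held more Adk and Samhd1 RNA and less Xdh RNA beside the higher Slc28 pair.

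Of 8 tested genes of extracellular nucleotides and adenosine receptors, 4 rose and 3 fell with culture, or 3 and 3 on log2(TPM + 1). The shares over all genes were 29.4% higher and 28.9% lower, or 1877 and 4842 of 13043 on log2(TPM + 1). Nt5e, the ectoenzyme CD73 that makes adenosine outside the cell, averaged 77.9 ± 4.24 CPM with IL-1b, 81.5 ± 2.72 in cultured and 35.5 ± 1.11 in fresh cells, a log2 fold change of 1.2 for culture (adjusted p = 1.3e-13, edgeR). P2rx7, an ion channel opened by extracellular ATP, averaged 2.08 ± 0.462, 1.94 ± 0.332 and 20.5 ± 0.803 CPM in the same order, a log2 fold change of -3.40 for culture (adjusted p = 2.79e-13, edgeR). With IL-1b over cultured cells 15.6% of all genes were called higher and 13.3% lower, or 289 and 4452 of 13043 on log2(TPM + 1). Among the 8 listed genes 2 rose and 0 fell, or 0 and 2 on log2(TPM + 1). The 2 that rose were P2ry10, a receptor of lysophospholipids by its known ligands (0.47, adjusted p = 1.35e-07, edgeR), which had 0.14 and no call on log2(TPM + 1), and Dpp4, a peptidase that binds adenosine deaminase (0.22, adjusted p = 0.004, edgeR), which turned to -0.20 on log2(TPM + 1).

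Of 14 tested genes of lymph node egress and retention, the setting in which Ecm1 is best known in T cells, 8 rose and 4 fell with culture, or 5 and 4 on log2(TPM + 1). The shares over all genes were 29.4% higher and 28.9% lower, or 1877 and 4842 of 13043 on log2(TPM + 1). S1pr1, the receptor that leads T cells out of the node, averaged 948 ± 5.61 CPM with IL-1b, 917 ± 23.5 in cultured and 586 ± 6.1 in fresh cells, with a log2 fold change of 0.65 for culture (adjusted p = 1.64e-15, edgeR). Cd69, which retains S1pr1 inside the cell, averaged 11.1 ± 1.88, 8.32 ± 1.12 and 49.7 ± 2.96 CPM, with -2.57 for culture (adjusted p = 2.3e-14, edgeR).

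With IL-1b over cultured cells 15.6% of all genes were called higher and 13.3% lower, or 289 and 4452 of 13043 on log2(TPM + 1). Of these 14 egress genes 5 rose and 1 fell, but 0 rose and 8 fell on log2(TPM + 1). Without cultured replicate 1 only 3 rose, and 3 fell once cultured replicate 2 was dropped and 2 once fresh replicate 1 or IL-1b-treated replicate 3 was dropped. Ccr7, which guides T cells into the node, had 0.16 (adjusted p = 0.000238, edgeR) and -0.17 in TPM. Grk2, a kinase that desensitises such receptors, was the gene that fell, at -0.21 (adjusted p = 0.000159, edgeR), and 0 fell with GC content and length trends removed. In that setting only 597 of all 13043 genes were called lower.

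Of 15 tested genes of extracellular matrix partners and remodelling, 1 rose and 6 fell with IL-1b over cultured cells (median -0.19), 0 and 8 on log2(TPM + 1), and 1 and 1 with GC content and length trends removed. The shares over all genes were 15.6% higher and 13.3% lower, or 289 and 4452 of 13043 on log2(TPM + 1). With the trends removed they were 1921 and 597 of 13043. Itga4, an integrin chain for fibronectin and VCAM1, had -0.20 (adjusted p = 2.89e-05, edgeR), and Itga6, a laminin receptor chain, had -0.19 (adjusted p = 9.14e-05, edgeR). With GC content and length trends removed Itga4 had -0.04 with no call, and Itga6 kept its call at -0.12. With culture, where 29.4% of all genes were called higher and 28.9% lower, 6 of the 15 rose and 3 fell. This balance turned to 4 and 5 on log2(TPM + 1), and 5 fell without cultured replicate 3. Itga6 averaged 334 ± 5.88 CPM with IL-1b, 381 ± 7.98 in cultured and 216 ± 2.92 in fresh cells, a log2 fold change of 0.82 for culture (adjusted p = 8.08e-16, edgeR). Itgb7, the chain that pairs with Itga4 for homing to the gut, averaged 420 ± 27.4, 465 ± 16.6 and 883 ± 12.9 CPM, with -0.93 for culture (adjusted p = 1.38e-15, edgeR).

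Of 14 other unconventional myosins tested, 2 rose and 9 fell with culture (median -0.58), where 29.4% of all genes were called higher and 28.9% lower. On log2(TPM + 1) 0 of the 14 rose and 8 fell, where 1877 of all 13043 genes were called higher and 4842 lower. Myo18a averaged 28.8 ± 1.02 CPM with IL-1b, 32.3 ± 2.59 in cultured and 122 ± 3.17 in fresh cells, a log2 fold change of -1.91 for culture (adjusted p = 7.02e-17, edgeR). Myo9b averaged 150 ± 5.2, 193 ± 2.35 and 300 ± 2.87 CPM, with -0.63 for culture (adjusted p = 5.96e-13, edgeR). With IL-1b over cultured cells 0 rose and 4 fell, namely Myo9b at -0.37 (adjusted p = 1.09e-07, edgeR), Myo1g, Myo10 and Myo5a. The other 10 did not pass the test, where 15.6% of all genes were called higher and 13.3% lower. With GC content and length trends removed 0 of the 14 fell, where only 597 of all 13043 genes were called lower.

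Of 10 tested adaptors and partners of myosin VI, 2 rose and 3 fell with culture, and 1 rose and 3 fell with IL-1b over cultured cells (0 and 5 on log2(TPM + 1)). Of all genes 29.4% were called higher and 28.9% lower with culture, and 15.6% and 13.3% with IL-1b. On log2(TPM + 1) 289 of all 13043 genes were called higher and 4452 lower with IL-1b. With GC content and length trends removed the adaptor counts were 4 and 2 for culture and 1 and 1 for IL-1b. Over all genes that setting gave 3830 higher and 3257 lower for culture, and 1921 and 597 for IL-1b. Tax1bp1, an autophagy receptor, averaged 459 ± 24.5 CPM with IL-1b, 393 ± 14.7 in cultured and 201 ± 7.52 in fresh cells. It rose by 0.97 with culture (adjusted p = 2.38e-15, edgeR) and by 0.22 with IL-1b (adjusted p = 0.000133, edgeR), where it turned to -0.11 in TPM. Lmtk2, a kinase that binds myosin VI, fell in both, with -0.47 for culture (adjusted p = 5.2e-07, edgeR) and -0.48 for IL-1b (adjusted p = 3.73e-06, edgeR).

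**Figure D5:**
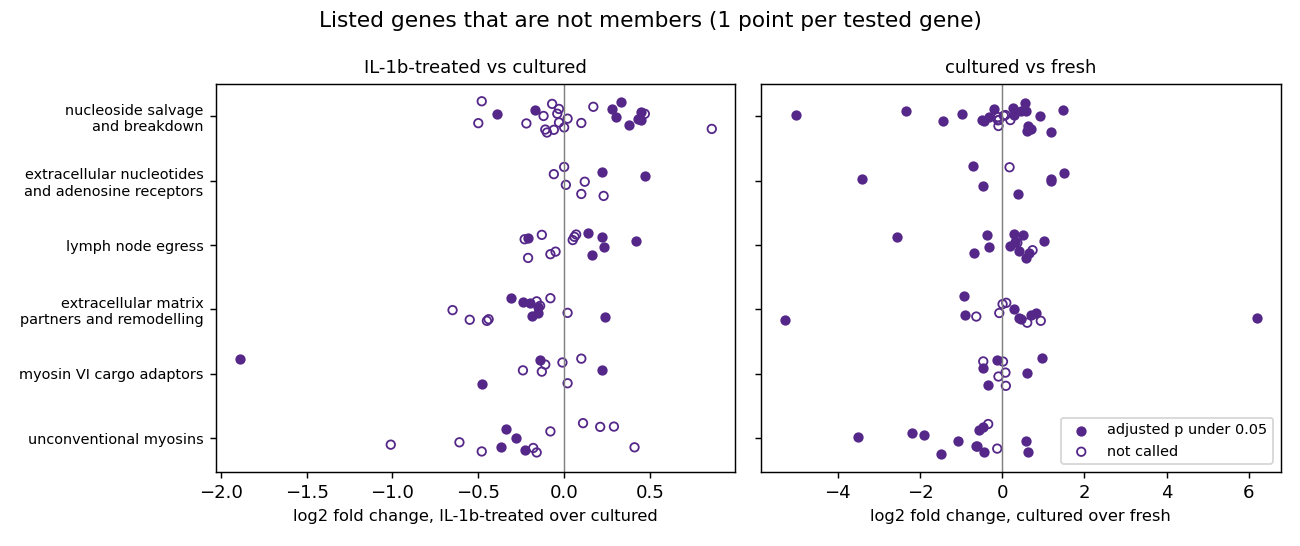
Log2 fold change of each tested gene of 6 lists without the members (horizontal axis) for IL-1b-treated over cultured cells, left, and cultured over fresh cells, right; filled points had an adjusted p under 0.05. Of 14 unconventional myosins 0 rose and 4 fell on the left and 2 rose and 9 fell on the right. Of all genes 15.6% were called higher and 13.3% lower on the left, and 29.4% and 28.9% on the right.

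The genes closest in pattern to the 3 that led the choice were found by Pearson's r of log2 CPM over the 9 libraries, among 10521 genes with at least 1 TPM in a group and no model name (Gm, Rik). The 9 points share 3 groups, so r is given as a description. For Ecm1 they were Map6 (r = 0.9994), a microtubule-stabilising protein, then Pim1, Bcl2, Gucy1a1 and Atp10a, the last at 0.9987. Gm14085, left out of that list by its name, stood at 0.9990 with Ecm1. For Myo6 they were Ifngr1 (r = 0.9996), a chain of the interferon-gamma receptor, then Gbp11, Crlf3, Wdr82 and Jaml, the last at 0.9988. For Gm14085 they were Jaml, Map6, Ecm1, Gucy1a1 and Pim1, between 0.9991 and 0.9988.

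Likeness of pattern did not mean likeness of size. Map6 averaged 32.6 CPM with IL-1b, 40.1 in cultured and 0.391 in fresh cells, and Ifngr1 averaged 624, 530 and 85.3 CPM. The listed neighbours of Ecm1 had log2 differences of -0.30 to -0.09 for IL-1b over cultured cells, and those of Myo6 had 0.05 to 0.27. Because r was taken over these same libraries, a direction shared with Ecm1 or Myo6 is favoured by the choice.

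Genes that overlap the members took few reads. Mir7014 in Ecm1, the antisense Gm27227 in Myo6 and the pseudogene Gm14086 in Slc28a2 had 0 counts in all 9 libraries. The antisense Gm17080 in Slc29a1 had at most 12.2 in a library.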

How the data were processed

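Polyadenylated RNA of 9 libraries was measured, 3 each of IL-1b-treated, cultured and fresh cells, made with a directional kit per the labels. Per the submitters' processing notes, STAR, RSEM and mm10 were used to make the tables, with versions and strand setting not given in the sources used here. The deposited tables hold, per the file headers, RSEM expected counts (shared reads divided among genes, not normalised), TPM values deposited as RSEM made them from those counts and effective lengths, and gene and effective lengths. FPKM values were deposited too and not used here.

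The members, the gene lists and the tests were chosen with earlier results of these data known. Of 55487 identifiers 55141 (99.38%) matched a GENCODE M21 symbol. Expected counts were rounded and fitted in R 4.3.3 with edgeR 4.0.16 (TMM, filterByExpr, quasi-likelihood test, 9 libraries in 1 fit with group as the only term, Benjamini-Hochberg threshold 0.05), which tested 13043 genes at a common biological variation coefficient of 0.0665. Library totals of 13518814 to 23056686 put 3 counts in a library at 0.13 to 0.222 CPM. Lengths and the share of Gm14085 were compared by exact permutation. All members are named, with up to 4 called genes of smallest adjusted p per list and comparison, and the 5 genes of highest r per pattern, model names (Gm, Rik) left out, and 1 listed gene is not reported here. Alternatives were RLE, upper-quartile and library-size scaling, other filters, DESeq2 1.42.0, limma 3.58.1 (voom, log2(TPM + 1), log2(TPM + 0.1)), an effective length offset, a trend on GC content and length removed with mgcv 1.9.3, fits of the groups compared only, a replicate block, leaving out each library, and the Slc28 pair summed. Scripts were tested on simulated data. Python 3.11.15, pandas 2.3.3, scipy 1.17.1, Biopython 1.88 and matplotlib 3.10.9 were used.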

Additional observations from a re-analysis of the deposited data

How the results depend on the processing

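For IL-1b-treated over cultured cells, Ecm1 kept its direction and call in all 23 settings run, with log2 fold changes of -0.71 to -0.28 (-0.33 to -0.28 with a library left out). The summed pair and the fits without a fresh library left its counts in both groups unaltered. Myo6 was no longer called on log2(TPM + 1) and log2(TPM + 0.1) (0.05 in both) or after removal of GC content and length trends (0.09), and lay between 0.25 and 0.28 with a library left out. Gm14085 was called with library size alone (-0.15) and on both TPM scales (-0.36) and turned to 0.01 with the trend removed. Slc28a2 turned to -0.06 with library size alone and to -0.25 on both TPM scales, and was called at 0.11 with the trend removed. The summed pair, which has no value for Slc28a2 alone, had -0.01. Slc29a1 turned to -0.17 on both TPM scales and was called at 0.26 with the trend removed. Slc29a3 was not called with the trend removed (-0.06) and lay between -0.39 and -0.21 with a library left out. The cause of these changes was not tested.

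The untested values moved beyond the spread of replicates as follows. For cultured over fresh cells, log2(TPM + 1), log2(TPM + 0.1) and trend removal gave 4.60, 4.62 and 5.11 for Ecm1, 4.46, 4.49 and 4.33 for Myo6, -0.26, -0.27 and 0.19 for Slc29a1 and -0.35, -0.37 and 0.18 for Slc29a3. The TPM scales gave 2.04 and 2.05 for Gm14085 and 0.57 for Slc28a2 in both, and their sum 1.69. For IL-1b-treated over fresh cells, library size alone, log2(TPM + 1) and log2(TPM + 0.1) gave 4.46, 3.88 and 3.91 for Ecm1, 4.76, 4.50 and 4.54 for Myo6, 2.08, 1.68 and 1.69 for Gm14085, 0.70, 0.32 and 0.32 for Slc28a2 and 0.02, -0.43 and -0.45 for Slc29a1, and the TPM scales gave -0.99 and -1.08 for Slc29a3. The effective length offset gave 4.47 for Ecm1 and 5.10 for Myo6, trend removal gave 4.83 for Ecm1, 4.41 for Myo6, 0.96 for Slc28a2, 0.44 for Slc29a1 and 0.12 for Slc29a3, and the summed pair 1.69.

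Genes called between IL-1b-treated and cultured cells numbered 3768, and 2151 with the effective length offset. Of these, 1234 were higher and 917 lower, and log2(TPM + 0.1) gave 286 higher and 4494 lower. For cultured over fresh cells 1877 were called higher on log2(TPM + 1) against 3829. Listed genes that turned on both TPM scales for IL-1b over cultured cells were Tax1bp1 (-0.11), Nt5c3b (-0.07), Ccr7 (-0.17), Gnai3 (-0.10), Itgb1 (-0.03) and Dpp4 (-0.20 and -0.21), and Itgb3 turned to 0.05 with the trend removed. The Myo5a call was lost in 4 and the Optn call in 6 of 9 fits without a library. Deviations from the group means correlated at -0.022 to 0.019 between same-numbered libraries. Libraries of different numbers were not compared, and the labels do not say whether numbers pair the samples. A replicate block gave 3652 and 7485 calls against 3768 and 7594.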
